A study of Mus musculus with 34 samples.

Results

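Krt17, Krt6a, Krt6b, Krt16 and Krt75 are the keratin genes of wounded, stressed and hair-forming epithelium described here. They are 5 of the 47633 genes in the tables, chosen by gene symbol because keratins of this kind were already known to stand out in these same data. Their levels and ratios are therefore given as a description, with no test. The values that chose them are the mean FPKM of all 17 groups, where FPKM is fragments scaled by transcript length and by the number of mapped fragments.

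The samples were bulk RNA of skin from mice aged 8 to 10 weeks, 34 samples in all. Footpad skin came from Krt17 knockout mice and from wild-type (WT) mice, each unirradiated (T0) or taken after 40 Gy of radiation at time points labelled T3, T6 and T9, for which no unit is stated. Back skin with growing hair came from p53 knockout mice, Krt17 knockout mice and WT mice, either unirradiated (0 h) or exposed to 5 Gy and taken 6 h or 24 h later. Each group held 2 samples and is given only as the authors' mean, so no difference below has a replicate check, and neighbouring levels cannot be set against a spread. The knockout alleles, the strain and whether the samples of a group came from separate mice are not given in the sources used here. The columns summed to between 854202 and 1095024 FPKM. Each tissue has its own table, normalized separately, so ratios were taken within a tissue.

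Keratins build the intermediate filaments of epithelial cells from pairs of a type I and a type II chain. Krt17 and Krt16 are type I chains, and Krt6a, Krt6b and Krt75 are type II chains that can pair with them. Resting epidermis between hairs makes little of Krt6, Krt16 and Krt17, and wounding switches them on within keratinocytes, while the hair follicle makes several of them without injury. Krt17 also binds signalling proteins, and Krt75 belongs to the companion layer of the follicle. Footpad epidermis is hairless, bears load and is a site of Krt6 and Krt16 expression. The footpad samples were still not free of follicle and gland RNA. Unirradiated WT footpad had 17.6 FPKM of Krt71, an inner root sheath keratin of the follicle, and 39.7 FPKM of sebaceous gland markers.

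Krt17 lies at chr11:100256217-100261029 and Krt16 at chr11:100246091-100248902, both on the minus strand (GENCODE M21, GRCm38, the same assembly as mm10). Krt6a lies at chr15:101689910-101694307, Krt6b at chr15:101676023-101680287 and Krt75 at chr15:101563345-101573904, also on the minus strand. The coding sequences of Krt6a and Krt6b were identical at 97.8% of aligned bases, with a shared run of 280 bases, and 60.3% of all 50-base windows of Krt6a also occur in Krt6b. How reads that match both were counted is not given in the sources used here, so the split between the pair is uncertain and their sum is given too. No 50-base window of Krt6a occurs in Krt75, and 9.30% of them occur in Krt5. The following 75-base stretches hold the most mismatches between the pair, in exon 4, at chr15:101692484-101692558 (Krt6a) and chr15:101678303-101678377 (Krt6b), with capitals at the 12 bases that differ.
Krt6a: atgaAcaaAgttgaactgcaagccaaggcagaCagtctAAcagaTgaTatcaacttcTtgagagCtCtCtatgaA
Krt6b: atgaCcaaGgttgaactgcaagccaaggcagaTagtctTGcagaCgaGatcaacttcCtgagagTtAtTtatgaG
Krt17 and Krt16 were identical at 78.2% of aligned coding bases, and 0.479% of the 50-base windows of Krt17 occur in Krt16. For Krt17 and Krt14, the type I chain of basal keratinocytes, identity was 84.1% and the share of windows 4.39%. Of the windows of Krt16, 13.7% occur in Krt14. The stretches below hold the most and the fewest mismatches between Krt17 and Krt16. As for Krt6a and Krt6b, only 75-base coding stretches aligned without gaps within an exon of both genes were compared. In exon 5 the genes differ at 28 of 75 bases, at chr11:100257782-100257856 (Krt17) and chr11:100247141-100247215 (Krt16), again in capitals.
Krt17, exon 5: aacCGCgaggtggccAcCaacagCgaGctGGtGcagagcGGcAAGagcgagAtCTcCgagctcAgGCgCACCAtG
Krt16, exon 5: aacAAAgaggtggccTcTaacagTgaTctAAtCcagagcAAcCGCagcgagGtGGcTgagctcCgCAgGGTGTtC
In exon 6 they differ at 3 of 75 bases, at chr11:100257448-100257522 (Krt17) and chr11:100246625-100246699 (Krt16).
Krt17, exon 6: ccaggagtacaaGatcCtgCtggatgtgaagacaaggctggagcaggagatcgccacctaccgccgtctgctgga
Krt16, exon 6: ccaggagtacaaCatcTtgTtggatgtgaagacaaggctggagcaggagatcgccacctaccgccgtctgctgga

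In the groups labelled Krt17 knockout, Krt17 was low in both tissues but not at 0. Back skin had 18.9, 14.7 and 29.9 FPKM of Krt17 at 0, 6 and 24 h in the Krt17 knockout, against 1650.3, 1358 and 1919 FPKM in WT. Footpad had 18.2, 26.2, 68.1 and 58.8 FPKM in the Krt17 knockout, in the order T0, T3, T6, T9, against 124, 92.6, 183 and 835 FPKM in WT. The 3 back skin values of the knockout all lie far below the 3 of WT, whereas in footpad the knockout value at T6 comes within 2.66-fold of WT (on the FPKM + 1 scale). In log2 ratios the knockout stood at -6.37, -6.44 and -5.96 against WT in back skin and at -2.70, -1.78, -1.41 and -3.80 in footpad. The Krt17 level of the knockout footpad was 0.456%, 0.579%, 0.738% and 1.08% of the Krt14 level at T0, T3, T6 and T9, and that of the knockout back skin 0.884%, 1.45% and 1.25% at 0, 6 and 24 h. In WT the share was 2.55%, 1.85%, 3.24% and 8.76% in footpad and 81.5%, 99.4% and 79.2% in back skin. Krt42, a close relative next to Krt17 in the genome, stayed at 1.90 FPKM or less in every group.

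Before irradiation the keratins had different places in the 2 tissues of WT mice. Among 52 keratin symbols, Krt17 was the 10th highest in footpad and the 5th highest in back skin. In footpad the leading keratins were Krt10 and Krt2 of the upper epidermal layers, Krt14 of the basal layer, Krt1 and Krt24. In back skin they were Krt71, Krt25 and Krt27 of the inner root sheath, then Krt14 and Krt17. Krt6a held place 12 in footpad and 26 in back skin, Krt16 places 13 and 32, and Krt6b places 18 and 37. Krt75, like Krt17, ran the other way, at place 34 in footpad with 2.29 FPKM and at place 24 in back skin with 290.4 FPKM. A place depends on the other keratins of the tissue and need not follow the level. Krt6a, Krt16 and Krt6b had 77.4, 57.5 and 17.7 FPKM in footpad and 183, 49.9 and 10.0 FPKM in back skin, each tissue normalized separately. All 5 passed the filter of 1 FPKM in at least 1 group of each tissue. At 5 FPKM Krt75 drops out of the footpad.

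The question in footpad was how these keratins moved after 40 Gy with and without Krt17. Krt6a, Krt6b and Krt16 rose in both genotypes at every time. The highest of the 4 values fell at T6 in the Krt17 knockout and at T9 in WT. At their highest, Krt6a, Krt6b and Krt16 were between 38.2-fold and 251-fold above T0 (FPKM + 1). A gene was called higher or lower at 2-fold or more on the scale of log2 (mean FPKM + 1), and counts are read beside the share of all genes called in the same comparison.

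Krt6b, the wound-induced type II chain, had 20.1, 231, 4738 and 1191 FPKM in Krt17 knockout footpad across the 4 time points from T0 to T9. WT footpad had 17.7, 369, 589 and 4693 FPKM. The knockout was close to WT at T0, lower at T3, higher at T6 and lower at T9, with nearly the same maximum at a different time. Krt6a, the partner copy, had 66.5, 252, 3031 and 668 FPKM in Krt17 knockout footpad, against 77.4, 353, 534 and 2997 FPKM in WT footpad. Its order of groups differed from that of Krt6b only in neighbouring places. Krt16, their type I partner, had 49.5, 199.97, 4574 and 1577 FPKM in Krt17 knockout footpad, against 57.5, 407, 677 and 4938 FPKM in WT footpad. The 3 genes thus shared their highest times in both genotypes.

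**Figure D1:**
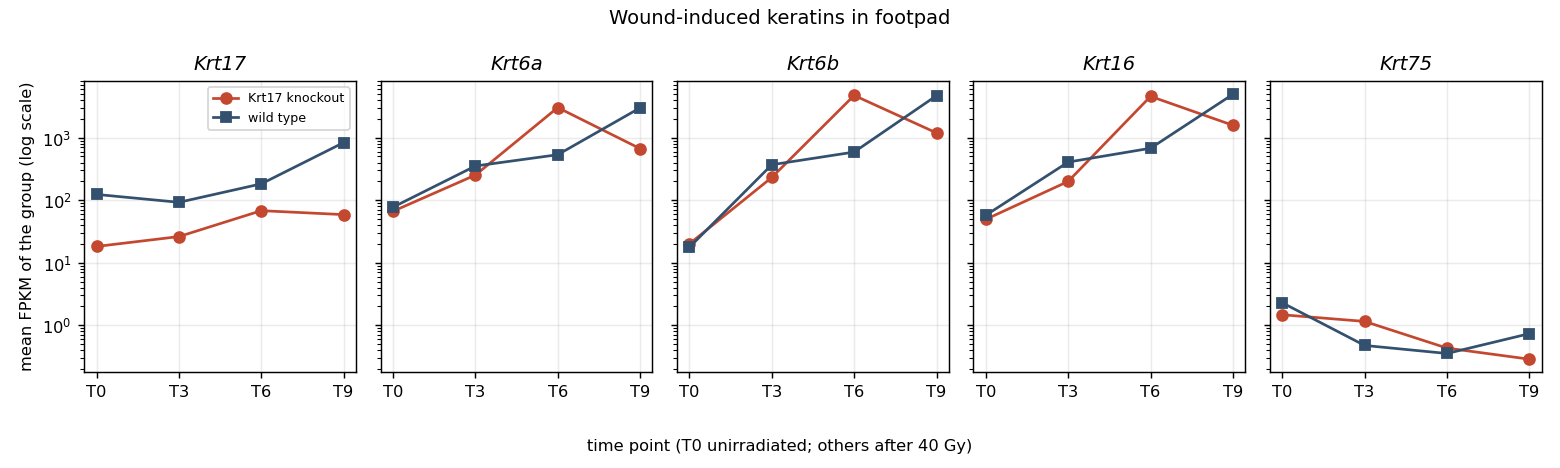
Mean FPKM (log scale) of the 5 keratins in footpad at T0, T3, T6 and T9, with Krt17 knockout as circles and WT as squares; each point is the mean of 2 samples. Krt6a, Krt6b and Krt16 of the knockout are highest at T6 and those of WT at T9, Krt17 of the knockout lies below WT throughout, and Krt75 stays at 2.29 FPKM or less.

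Against T0, Krt6b had log2 ratios of 3.46, 7.81 and 5.82 at T3, T6 and T9 in the knockout and of 4.31, 4.98 and 7.97 in WT. These put it at place 13, 1 and 4 from the top of all genes compared in the knockout and at place 8, 2 and 2 in WT. Krt16 had log2 ratios of 1.99, 6.50 and 4.97 in the knockout and 2.80, 3.54 and 6.40 in WT. Krt6a had 1.91, 5.49 and 3.31 in the knockout and 2.17, 2.77 and 5.26 in WT. In each of these 6 comparisons Krt6b had the largest ratio of the 3, Krt16 came next and Krt6a last. The 3 comparisons of a genotype share its T0 mean.

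Krt17 itself rose at T9 in WT footpad, with a log2 ratio of 2.74, after -0.41 at T3 and 0.56 at T6. In the knockout the residual Krt17 signal stood at 0.50, 1.84 and 1.64, past 2-fold at T6 and T9. Relative to Krt14 plus Krt5 the T6 value was 0.85, within 2-fold. Krt75 fell in WT at T3 (-1.16) and T6 (-1.28) and stood at -0.92 at T9, from a level of 2.29 FPKM at T0 that gives such ratios little weight. In the knockout Krt75 stood at 1.47, 1.15, 0.432 and 0.288 FPKM over the 4 times, with ratios of -0.20, -0.79 and -0.94.

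In counts, 3 of the 5 keratins were called higher at T3 in the knockout, where 1.99% of all genes were, 4 at T6 (4.0% of all genes) and 4 at T9 (2.2%). In WT, 3 were called higher at T3 (1.48% of all genes), 3 at T6 (2.47%) and 4 at T9 (3.15%), and 1 was called lower at T3 (1.62%) and at T6 (1.34%). Since these keratins were chosen for this response, nothing is read from the excess over the background.

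**Figure D2:**
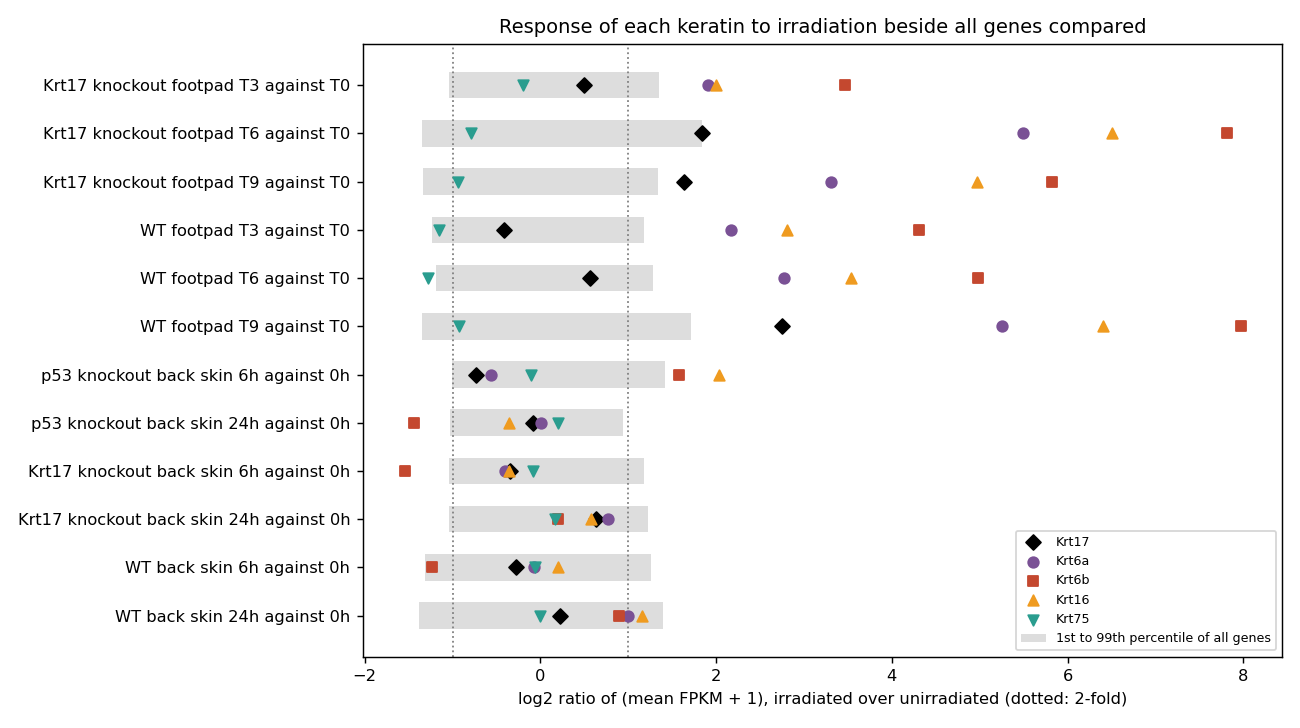
Log2 ratio of (mean FPKM + 1), irradiated over unirradiated, of the 5 keratins in the 12 comparisons, with grey bars from the 1st to the 99th percentile of all genes and dotted lines at 2-fold. Krt6a, Krt6b and Krt16 lie to the right of the grey bar in all 6 footpad comparisons, and in back skin Krt6b and Krt16 do so only in the p53 knockout at 6 h.

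Between T6 and T9 the genotypes went opposite ways. In the knockout, T9 lay below T6 by log2 ratios of -2.18 for Krt6a, -1.99 for Krt6b and -1.54 for Krt16, with 3 keratins called lower where 1.71% of all genes were. In WT, T9 lay above T6 by 2.49, 2.99 and 2.86, and by 2.19 for Krt17, with 4 keratins called higher where 1.51% of all genes were.

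Set against WT at the same time, the knockout had less Krt17 at each of the 4 times, and at T0 that was the 1 keratin called lower (0.51% of all genes). At T0 the ratios of Krt6a, Krt6b and Krt16 lay between -0.22 and 0.17. At T3 Krt16 was lower as well (-1.02), just past 2-fold and at -0.90 relative to Krt14 plus Krt5, so 2 keratins were called lower (0.553% of all genes). At T6 Krt6a (2.50), Krt6b (3.01) and Krt16 (2.75) were higher in the knockout, 3 keratins where 1.92% of all genes were called higher, and Krt17 was the 1 called lower (0.75%). At T9 Krt6a (-2.16), Krt6b (-1.98), Krt16 (-1.65) and Krt17 were all lower in the knockout, 4 keratins where 1.21% of all genes were. Krt75 stayed within 2-fold of WT at all 4 times. Krt17 is the gene knocked out, so its part in these counts follows from the genotype.

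The difference between the responses, knockout minus WT, was within 2-fold for each of the 5 keratins at T3, where 3.02% of all genes passed 2-fold in either direction. At T6 it was 2.72 for Krt6a, 2.84 for Krt6b, 2.97 for Krt16 and 1.29 for Krt17 on the log2 scale, 4 keratins higher where 2.0% of all genes were. At T9 it was -1.95, -2.15, -1.43 and -1.11, 4 keratins lower where 2.05% of all genes were. Relative to Krt14 plus Krt5, the Krt17 differences were 0.55 at T6 and -0.78 at T9, no longer past 2-fold. These differences rest on the 2 T0 means and were not tested, since single samples are not given. For Krt17 they set the residual signal of the knockout against WT.

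Krt14, the type I chain of the basal layer, was highest at the same times as Krt6a, Krt6b and Krt16. It had 4001, 4529, 9229 and 5428 FPKM from T0 to T9 in the knockout, against 4844, 4999, 5647 and 9535 FPKM in WT, with a log2 ratio to T0 of 1.21 at T6 in the knockout and 0.98 at T9 in WT. Its partner Krt5 had 1682, 1927, 2075 and 2422 FPKM in the knockout, against 1855, 2037, 2353 and 2048 FPKM in WT, highest at T9 in the knockout and at T6 in WT. The other basal markers, Itgb4 and Col17a1, summed to 161, 196, 174 and 122 FPKM in the knockout, against 193, 197, 191 and 151 FPKM in WT, lowest at T9 in both. So of the basal markers, Krt14 had the times of the wound keratins, while Krt5 and the sum of Itgb4 and Col17a1 had not. Of the 50-base windows of Krt16, 13.7% occur in Krt14, and the part of shared reads was not tested. Krt14 plus Krt5 summed to 5683, 6456, 11305 and 7850 FPKM in the knockout, in time order, against 6698, 7036, 8000.4 and 11583 FPKM in WT. In bulk skin, more cells of a type and more RNA per cell cannot be told apart. As a share of that sum, Krt6a and Krt6b together made 1.52%, 7.49%, 68.7% and 23.7% in the knockout, against 1.42%, 10.3%, 14.0% and 66.4% in WT. Krt16 made 0.871%, 3.10%, 40.5% and 20.1% in the knockout, against 0.859%, 5.79%, 8.47% and 42.6% in WT. The maxima thus stayed at T6 in the knockout and at T9 in WT on this scale, where Krt6b had a log2 ratio to T0 of 6.82 at T6 in the knockout and 7.18 at T9 in WT. The share of Krt17, at 0.321%, 0.406%, 0.602% and 0.750% in the knockout and 1.85%, 1.32%, 2.28% and 7.21% in WT, had no maximum at T6 in the knockout.

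Markers of other cell types also moved in these footpad groups. The 4 macrophage markers summed to 47.5, 55.3, 87.2 and 67.9 FPKM from T0 to T9 in the knockout, against 38.0, 34.8, 94.1 and 80.1 FPKM in WT, highest at T6 in both genotypes. The 3 melanocyte markers summed to 3.30, 6.40, 14.1 and 8.47 FPKM in the knockout, against 3.57, 6.89, 13.0 and 12.4 FPKM in WT. The 3 sebocyte markers, from sebaceous glands, summed to 97.2, 82.9, 10.8 and 20.1 FPKM in the knockout, against 39.7, 25.6, 7.05 and 7.09 FPKM in WT. The 4 skeletal muscle markers summed to 115, 349, 286 and 157 FPKM in the knockout, against 56.0, 79.0, 121 and 49.6 FPKM in WT. The 4 fibroblast markers summed to 247, 282, 384 and 264 FPKM in the knockout, against 269, 248, 547 and 308 FPKM in WT. None of these markers was at 0 in any footpad group, and their part in the result was not tested.

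**Figure D3:**
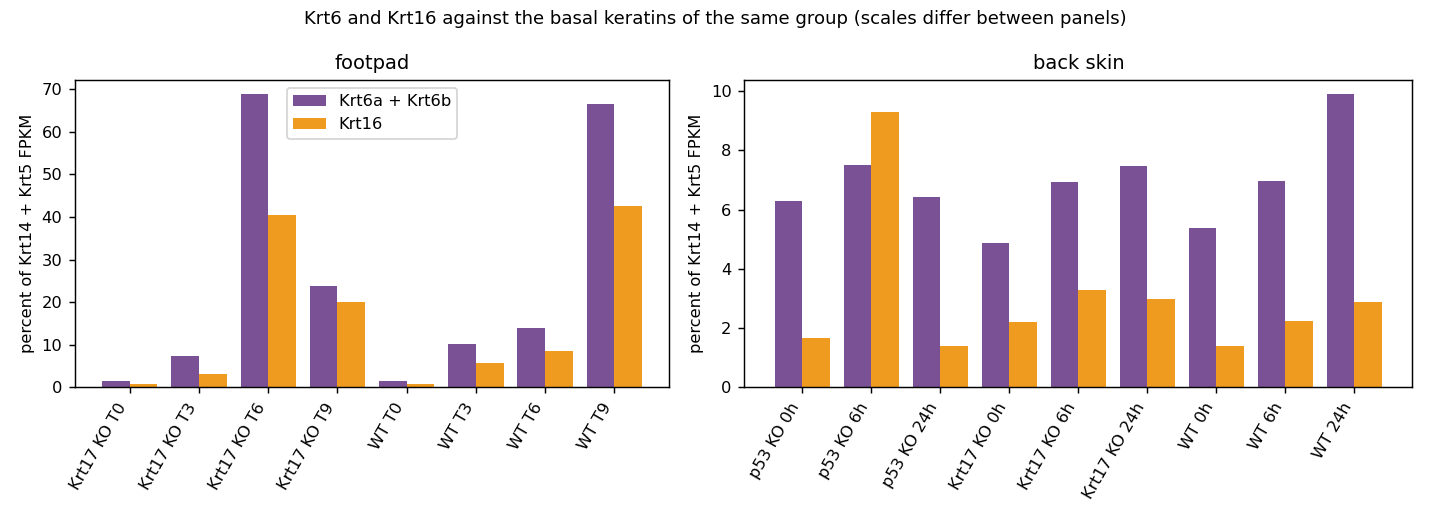
Summed FPKM of Krt6a and Krt6b (purple) and FPKM of Krt16 (orange) as a percent of Krt14 plus Krt5 in the same group, for footpad (left) and back skin (right), with different scales. In footpad the tallest bars are 68.7% (knockout T6) and 66.4% (WT T9), and in back skin Krt16 is tallest at 9.29% in the p53 knockout at 6 h.

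The balance of chains also shifted. The FPKM of Krt6b divided by that of Krt6a was 0.302, 0.917, 1.56 and 1.78 at T0, T3, T6 and T9 in the knockout, against 0.229, 1.05, 1.1 and 1.57 in WT, within the limit set by their shared sequence. Krt16 divided by the summed Krt6 pair was 0.572, 0.413, 0.589 and 0.848 in the knockout, against 0.605, 0.564, 0.603 and 0.642 in WT. Krt17 divided by Krt16 was 0.368, 0.131, 0.0149 and 0.0373 in the knockout, against 2.15, 0.227, 0.270 and 0.169 in WT, so that Krt17 exceeded Krt16 only in unirradiated WT footpad among the 8 groups. All 5 keratins together made 1.23% of the FPKM total at T6 in the knockout and 1.36% at T9 in WT, against 0.0157% and 0.0282% at T0.

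Across the 8 footpad means, Krt6a, Krt6b and Krt16 were near copies of each other, with Pearson's r between 0.985 and 0.989 on log2 (FPKM + 1). Krt17 had r of 0.569 with Krt6a, 0.505 with Krt6b and 0.559 with Krt16, over means of which 4 of 8 are from the Krt17 knockout. Among other genes, Cgref1 (0.988, between 5.49 and 25.0 FPKM) and Tmem125 (0.988, between 13.9 and 35.4 FPKM) had patterns close to that of Krt6a. For Krt6b the nearest other genes were Tmem125, Ccdc43 and Cyp4f16, and for Krt16 they were Tmprss4, Fam220a and Rcan1. Plbd1 (0.951) and Dusp16 (0.949) led for Krt17, and Ppfibp2 (0.949) for Krt75. These are among the highest of 8698 genes (8699 for Krt75) over 8 means that share T0 groups and 1 sequencing table, so they describe these columns only.

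Genes known to induce these keratins were taken from lists written with earlier results of these data known. The ligand list includes growth factors of the EGF family and cytokines, with 11 members measured in footpad. In the knockout 2, 3 and 1 were called higher at T3, T6 and T9, in WT 0, 1 and 3, and none was lower. Of all genes, 1.99%, 4.0% and 2.2% were called higher at these times in the knockout and 1.48%, 2.47% and 3.15% in WT. The shares of all genes called lower were 1.14%, 2.23% and 1.75% in the knockout and 1.62%, 1.34% and 1.63% in WT. Epgn, an EGF family ligand, had 1.89, 13.6, 161 and 16.3 FPKM in the knockout, in time order, against 4.0, 7.38, 13.5 and 165 FPKM in WT. Areg, another ligand of that receptor, had 4.81, 5.06, 25.9 and 4.93 FPKM in the knockout, against 2.25, 4.05, 4.52 and 18.5 FPKM in WT. Both were highest at T6 in the knockout and at T9 in WT. Btc, a further EGF family ligand, lay between 2.81 and 7.96 FPKM in all 8 groups.

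Of the receptors of these ligands, 20 were measured and 0 were called in any of the 6 footpad comparisons. Of all genes, between 1.48% and 4.0% were higher and between 1.14% and 2.23% lower in these comparisons. At such shares few of 20 genes would be called, so nothing is read from the 0. Of 21 transcription factors linked to wound keratins, 3 were called higher and 1 lower in the knockout at T6, and 1 higher and 2 lower in WT at T9. Of all genes, 4.0% were higher and 2.23% lower in the first comparison and 3.15% higher and 1.63% lower in the second. Fos, a subunit of AP-1, had 26.4, 25.3, 17.2 and 21.7 FPKM in the knockout, against 57.5, 21.9, 12.6 and 8.68 FPKM in WT, where it was called lower at each time after T0. Nfe2l2, the factor known as Nrf2, had 20.2, 38.9, 50.8 and 34.8 FPKM in the knockout, against 24, 28.4, 33.5 and 48.9 FPKM in WT. It was called higher only in the knockout at T6, with WT at T9 just short of 2-fold. Fosl1, an AP-1 subunit named after its values were seen, was called higher in the knockout at T6 and in WT at T9, at 2.59 and 2.27 FPKM. Of the proteins reported to bind Krt17, Sfn, Hnrnpk and Tradd were measured and 0 passed 2-fold. Beside the shares of all genes given for the receptors, nothing is read from a 0 among so few genes. Sfn, the keratinocyte protein 14-3-3 sigma, had 1417, 1744, 2714 and 2036 FPKM in the knockout, against 1623, 1586, 1808 and 2534 FPKM in WT.

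Among other genes of activated keratinocytes, more were called at T6 than at T3 or T9 in the knockout, and more at T9 than at T3 or T6 in WT. Of 29 measured, 8, 21 and 15 were called higher at T3, T6 and T9 in the knockout and 11, 6 and 20 in WT, with 0 lower, beside 1.99%, 4.0% and 2.2% of all genes in the knockout and 1.48%, 2.47% and 3.15% in WT. Their median log2 ratio was 0.52, 1.57 and 1.19 in the knockout and 0.39, 0.40 and 2.15 in WT, beside medians of all genes between 0.00 and 0.09. S100a9, an alarm protein of the calprotectin pair, had 11, 123, 623 and 134 FPKM in the knockout, against 2.69, 68.3, 28.3 and 901 FPKM in WT. Defb4, an antimicrobial peptide, had 4.16, 8.34, 365 and 60.8 FPKM in the knockout, against 2.0, 11, 6.80 and 482 FPKM in WT. S100a8 and S100a9 are also neutrophil genes. The 5 neutrophil markers summed to between 2.0 and 4.0 FPKM over the 8 footpad groups, with up to 3 of them at 0 in a group.

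**Figure D4:**
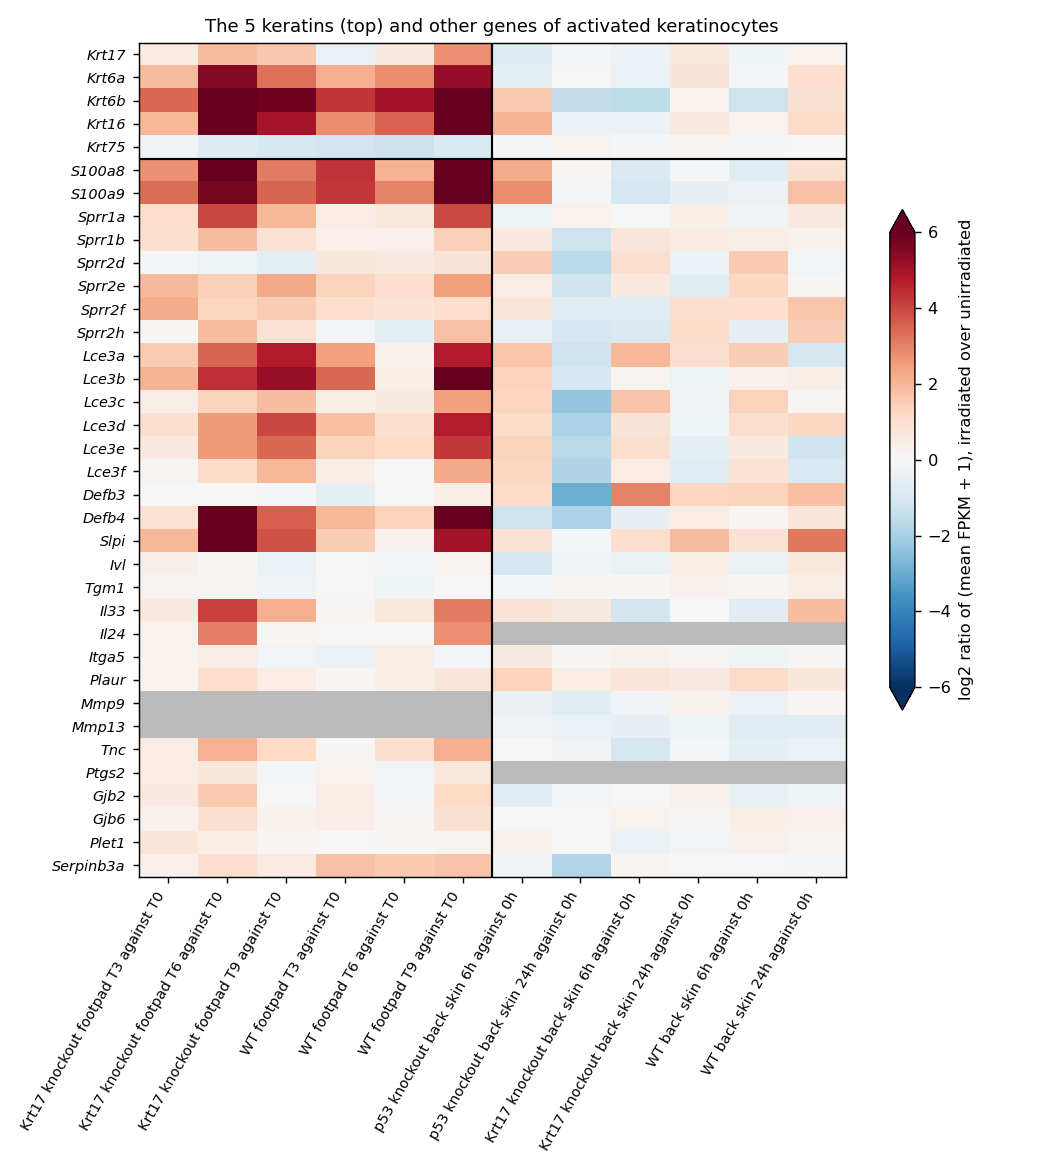
Log2 ratio of (mean FPKM + 1), irradiated over unirradiated, for the 5 keratins (above the line) and the other genes of activated keratinocytes, with footpad left of the vertical line and back skin right of it, and grey where a gene was not measured. Red is higher and blue lower after irradiation, with colour saturating at 6; the deepest red columns are knockout T6 and WT T9, and the bluest is the p53 knockout back skin at 24 h.

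Keratins outside the wound group differed in how they moved. Of 10 other epithelial type I keratins measured, 1 (Krt14) was called higher and 3 lower at T6 in the knockout, and 1 (Krt42, at 1.90 FPKM) higher and 0 lower at T9 in WT. Krt24, a type I keratin abundant in footpad, had 2719, 2240, 1242 and 746 FPKM in the knockout, against 3134, 3259, 2737 and 1852 FPKM in WT. Of 8 other epithelial type II keratins measured at those times, 0 were called. Of all genes, 4.0% were higher and 2.23% lower in the knockout at T6, and 3.15% higher and 1.63% lower in WT at T9. Of 7 inner root sheath keratins, 5, 7 and 7 fell in the knockout and 6, 6 and 6 in WT, where 1.14%, 2.23% and 1.75% of all genes fell in the knockout and 1.62%, 1.34% and 1.63% in WT. Of 11 hair shaft keratins, 1, 8 and 9 fell in the knockout and 9, 9 and 9 in WT. Krt36, a hair keratin named after its values were seen, was called higher at T6 in the knockout (3.32 FPKM) and at T9 in WT (4.22 FPKM). Krt27 of that sheath had 15.4, 1.28, 1.39 and 0.0493 FPKM in the knockout, against 11.9, 0.775, 1.81 and 0.106 FPKM in WT. Krt10 and Krt2 are listed at 0 in WT at T3 and were treated as missing there. Of 14 desmosome and keratin anchoring genes, Dsc2 and Dsg3 rose at T6 in the knockout and at T9 in WT, beside 4.0% and 3.15% of all genes, and 0 fell. Dsc2, a desmosomal cadherin, had 1.76, 2.87, 15.6 and 3.28 FPKM in the knockout, against 1.79, 2.61, 2.27 and 10.3 FPKM in WT.

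In back skin the question was how 5 Gy changed the same keratins where the hair follicle already makes them, with and without p53 or Krt17. The changes were smaller than in footpad. Dose, sampling times and tissue all differ from those of footpad, and their parts cannot be told apart. Krt16 and Krt6b rose at 6 h in the p53 knockout, and Krt6b fell at 6 h in the other genotypes. All Krt6b calls in back skin rest on its uncertain split from the more abundant Krt6a. The summed pair was lowest at 6 h in each genotype. Krt16 rose at 24 h in WT, and Krt75 and Krt17 stayed within 2-fold of 0 h in every genotype.

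Krt16 had 53.8, 223 and 41.9 FPKM at 0, 6 and 24 h in the p53 knockout. The Krt17 knockout had 78.6, 61.1 and 117 FPKM of Krt16, and WT had 49.9, 57.5 and 112 FPKM. The p53 knockout alone had its maximum at 6 h. Krt6b had 17.4, 53.9 and 5.80 FPKM in the p53 knockout, 3.89, 0.678 and 4.64 FPKM in the Krt17 knockout, and 10.0, 3.70 and 19.5 FPKM in WT. Krt6b was thus lowest at 6 h in the Krt17 knockout and WT, and highest at that time in the p53 knockout.

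Krt6a had 187, 126 and 188 FPKM in the p53 knockout, 169, 127 and 289 FPKM in the Krt17 knockout, and 183, 174 and 367 FPKM in WT. It was lowest at 6 h in all 3 genotypes. Krt6a plus Krt6b summed to 204, 180 and 194 FPKM in the p53 knockout. The sum was 173, 128 and 294 FPKM in the Krt17 knockout, and 193, 177 and 386 FPKM in WT. It too was lowest at 6 h in each genotype, also in the p53 knockout, where Krt6b was highest at that time. Krt17 had 1475, 883 and 1396 FPKM in the p53 knockout, beside the WT and Krt17 knockout values above. Krt75 had 203, 188 and 234 FPKM in the p53 knockout, 254, 239.8 and 285 FPKM in the Krt17 knockout, and 290.4, 278 and 289 FPKM in WT, a range of 1.54-fold over all 9 groups.

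**Figure D5:**
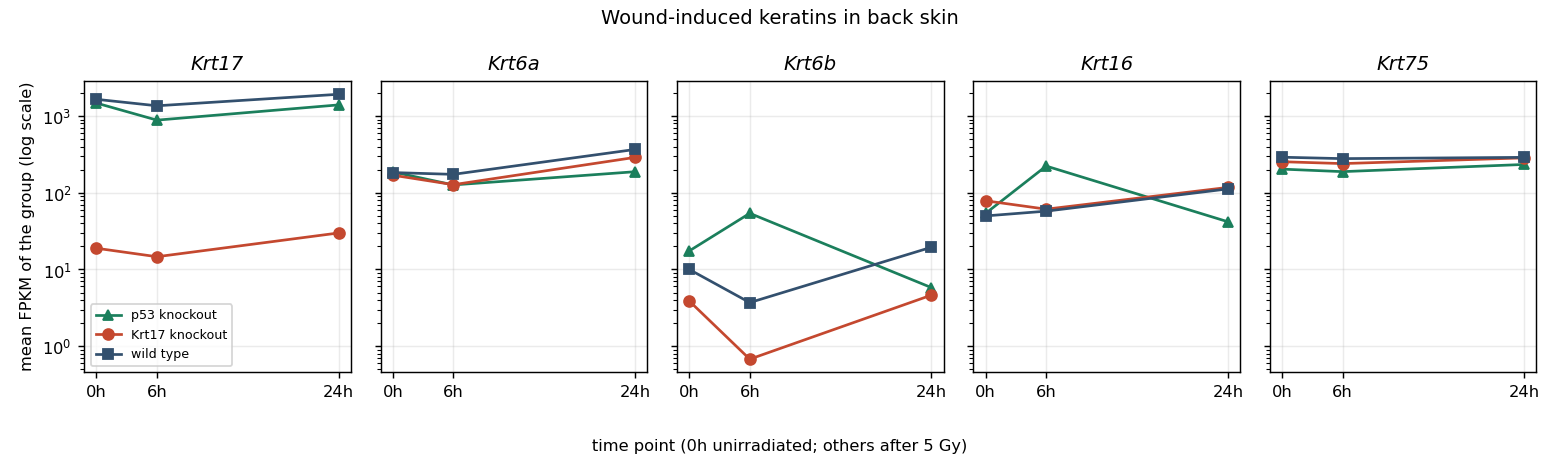
Mean FPKM (log scale) of the 5 keratins in back skin at 0, 6 and 24 h, with p53 knockout as triangles, Krt17 knockout as circles and WT as squares; each point is the mean of 2 samples. Krt6b and Krt16 of the p53 knockout are highest at 6 h (53.9 and 223 FPKM), Krt17 of the Krt17 knockout lies between 14.7 and 29.9 FPKM, and Krt75 is nearly level.

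In the p53 knockout at 6 h the log2 ratio to 0 h was 2.03 for Krt16 and 1.58 for Krt6b, 2 keratins where 2.11% of all genes were called higher. The same skin had -0.74 for Krt17 and -0.56 for Krt6a, both within 2-fold. At 24 h Krt6b was lower than at 0 h (-1.44), the 1 keratin called lower where 1.06% of all genes were. At 24 h against 6 h, Krt6b (-3.01) and Krt16 (-2.38) were lower, 2 keratins where 2.04% of all genes were.

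In the Krt17 knockout at 6 h Krt6b was the 1 keratin called lower (-1.54), where 1.12% of all genes were. At 24 h 0 of the 5 were called, where 2.77% of all genes passed 2-fold in either direction, with Krt6a at 0.77, Krt17 at 0.63 and Krt16 at 0.57. At 24 h against 6 h Krt6a (1.18) and Krt6b (1.75) were higher, 2 keratins where 1.7% of all genes were. Relative to Krt14 plus Krt5 these ratios were 0.09 and 0.66, within 2-fold. Krt17 (0.98) and Krt16 (0.93) were just short of 2-fold in that comparison.

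In WT at 6 h Krt6b was the 1 keratin called lower (-1.23), where 3.17% of all genes were. At 24 h Krt16 was the 1 called higher (1.15), where 2.14% of all genes were, with Krt6a at 0.997, just short of 2-fold, and Krt6b at 0.89. At 24 h against 6 h Krt6a (1.07) and Krt6b (2.12) were higher, 2 keratins where 2.99% of all genes were, though relative to Krt14 plus Krt5 Krt6a stood at 0.46. The median of all genes in WT was -0.15 at 6 h and -0.20 at 24 h. With columns rescaled to a common median, Krt6b at 6 h stood at -1.04, and at 24 h Krt16 stood at 1.42, Krt6a at 1.27 and Krt6b at 1.15, which makes 3 keratins higher. At 6 h in WT, 36.0% of all called genes were higher as deposited and 58.6% after rescaling. At 24 h the shares were 38.5% and 66.0% in WT. In the Krt17 knockout at 24 h they were 59.0% and 69.9%.

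Against WT, the p53 knockout at 0 h had 0 keratins past 2-fold, where 1.76% of all genes were, with Krt6b at 0.74 and Krt75 at -0.51. At 6 h Krt6b (3.55) and Krt16 (1.93) were higher in the p53 knockout, 2 keratins where 4.06% of all genes were. At 24 h Krt6b (-1.59) and Krt16 (-1.40) were lower, 2 keratins where 1.85% of all genes were, and Krt6a stood at -0.96. The response of the p53 knockout minus that of WT at 6 h was 2.81 for Krt6b and 1.83 for Krt16, 2 keratins higher where 3.92% of all genes were. At 24 h it was -2.33 and -1.51, 2 keratins lower where 2.76% of all genes were. None of these differences was tested. The medians of all genes were 0.16 and 0.22 against WT and 0.18 and 0.25 for the responses. After rescaling, Krt6b and Krt16 stood at 3.34 and 1.71 against WT at 6 h and at -1.86 and -1.69 at 24 h, with Krt6a at -1.26. The response differences then stood at 2.59 and 1.58 at 6 h and at -2.62 and -1.82 at 24 h, with Krt6a at -1.30. Against WT, 78.4% of all called genes were higher at 6 h as deposited and 58.9% after rescaling, and at 24 h 69.6% and 43.3%. For the responses these shares were 70.1% and 47.7% at 6 h, then 63.5% and 33.7% at 24 h.

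Against WT, the Krt17 knockout had less Krt6b as well as less Krt17 at 0, 6 and 24 h, with Krt6b ratios of -1.17, -1.49 and -1.86. These made 2 keratins called lower at each time, where 0.668%, 0.835% and 1.04% of all genes were. Of these 2, Krt17 is the gene knocked out, so its call follows from the genotype. Krt16 stood at 0.64, 0.08 and 0.06 and Krt6a at -0.11, -0.44 and -0.34, all within 2-fold. The response of the Krt17 knockout minus that of WT was within 2-fold for all 5 keratins at 6 h and at 24 h, where 4.16% and 3.31% of all genes passed 2-fold in either direction. The largest of these differences among the 5 was -0.69, for Krt6b at 24 h. The medians of all genes for these differences were 0.11 and 0.10. Of all called genes 59.5% were higher at 6 h as deposited and 44.9% after rescaling, and at 24 h 61.7% and 49.0%.

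Krt14 plus Krt5 were lowest at 6 h in each genotype, at 3256, 2399 and 3010.5 FPKM in the p53 knockout, 3566, 1851 and 3938 FPKM in the Krt17 knockout, and 3588, 2548 and 3906 FPKM in WT. As a share of them, Krt16 made 1.65%, 9.29% and 1.39% in the p53 knockout, 2.2%, 3.30% and 2.98% in the Krt17 knockout, and 1.39%, 2.26% and 2.87% in WT. Krt6a plus Krt6b made 6.27%, 7.52% and 6.44% in the p53 knockout, 4.86%, 6.92% and 7.45% in the Krt17 knockout, and 5.39%, 6.96% and 9.89% in WT. On this scale Krt6b at 6 h stood at -0.60 in the Krt17 knockout and -0.74 in WT, no longer past 2-fold. The FPKM of Krt6b divided by that of Krt6a lay between 0.00532 and 0.427 over the 9 groups, so the summed pair mostly reflects Krt6a there.

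Neutrophil markers, like Krt6b and Krt16, were highest at 6 h in the p53 knockout and at 24 h in WT. The 5 markers, all found, summed to 4.1, 35.4 and 7.5 FPKM at 0, 6 and 24 h in the p53 knockout, 2.6, 1.9 and 2.0 FPKM in the Krt17 knockout, and 2.1, 2.7 and 9.3 FPKM in WT. Of them, 1 was at 0 in the Krt17 knockout at 6 h and 1 in WT at 6 h. In the p53 knockout the neutrophil sum at 24 h stayed above 0 h, while Krt6b and Krt16 were below it. In the Krt17 knockout the sum was highest at 0 h, and both keratins at 24 h. The 4 fibroblast markers summed to 745, 1148 and 766 FPKM in the p53 knockout, 1137, 844 and 602 FPKM in the Krt17 knockout, and 1444, 981 and 509 FPKM in WT. The 4 skeletal muscle markers summed to 2399, 2780 and 2477 FPKM in the p53 knockout, 3120, 4006 and 4051 FPKM in the Krt17 knockout, and 1643, 3718 and 2603 FPKM in WT. The part of these marker lists in the result was not tested.

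Across the 9 back skin means the pattern most like Krt6b was that of Gsdmc, a gasdermin (r = 0.969), then Stfa1 and S100a11. For Krt16 it was Nupr1, a stress-induced nuclear protein (0.908), and for Krt6a Oplah (0.947), while Syngr2 (0.925) led for Krt17 and Evpl, a cornified envelope protein, for Krt75 (0.979). These are the highest of 10153 genes over 9 means that share a table. The 9 means include the Krt17 knockout, where Krt17 is the gene knocked out, so its nearest genes lean on that contrast. Krt17 had r of 0.184 with Krt6a and 0.649 with Krt6b over the 9 means. Over the 6 without that knockout these were 0.857 and -0.43. Krt6a had r of 0.138 with Krt6b and 0.0914 with Krt16 in back skin, and Krt6b and Krt16 had 0.556. Over the 6 means without the Krt17 knockout these values were -0.13, -0.12 and 0.842.

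In the lists, 2 of 21 transcription factors rose and 0 fell in the p53 knockout at 6 h, where 2.11% of all genes were higher and 1.03% lower. Cebpd, a C/EBP factor of acute responses, had 28.3, 133 and 48.9 FPKM at 0, 6 and 24 h there, 19.9, 65.6 and 29.8 FPKM in the Krt17 knockout, and 18.3, 59.0 and 65.0 FPKM in WT. Stat3, which carries cytokine signals, had 12.5, 38.2 and 19.2 FPKM in the p53 knockout, 14.5, 19.4 and 14.9 FPKM in the Krt17 knockout, and 17.7, 24.9 and 25.8 FPKM in WT. Of 20 receptors, Ifngr1, a chain of the interferon gamma receptor, and Osmr, the oncostatin M receptor, rose in the p53 knockout at 6 h, beside the same 2.11% of all genes. Osmr had 4.69, 11.5 and 5.78 FPKM in the p53 knockout, 3.35, 4.36 and 4.57 FPKM in the Krt17 knockout, and 4.80, 4.94 and 7.90 FPKM in WT. Of 13 ligands, 0 passed 2-fold in the p53 knockout, and Areg, the 1 ligand called higher at 6 h, rose in both the Krt17 knockout and WT, where 1.6% and 1.78% of all genes were higher.

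Of 29 other genes of activated keratinocytes, 11 rose and 1 fell at 6 h in the p53 knockout, and 0 rose and 11 fell at 24 h. Of all genes in the p53 knockout, 2.11% rose and 1.03% fell at 6 h, and 0.908% rose and 1.06% fell at 24 h. The Krt17 knockout had 3 higher and 2 lower at 6 h and 3 higher and 0 lower at 24 h, where 1.6% of all genes were higher and 1.12% lower at 6 h and 1.64% higher and 1.14% lower at 24 h. WT had 6 higher and 0 lower at 6 h and 7 higher and 2 lower at 24 h, where 1.78% of all genes were higher and 3.17% lower at 6 h and 2.14% higher and 3.41% lower at 24 h. Their medians were 0.60 and -0.62 in the p53 knockout, 0.18 and 0.05 in the Krt17 knockout, and 0.24 and 0.30 in WT. S100a9 had 50.2, 348 and 48.3 FPKM in the p53 knockout, 44.3, 20.8 and 31.7 FPKM in the Krt17 knockout, and 29.6, 23.4 and 103 FPKM in WT. S100a9 is also a neutrophil gene. Like the neutrophil marker sums above, it was highest at 6 h in the p53 knockout, 0 h in the Krt17 knockout and 24 h in WT. Which cells gave its signal was not tested. Lce3a, a late cornified envelope protein, had 3.10, 11.9 and 0.752 FPKM in the p53 knockout, 0.270, 4.12 and 1.48 FPKM in the Krt17 knockout, and 2.55, 9.01 and 0.726 FPKM in WT, so its maximum at 6 h was not limited to 1 genotype. Of 14 hair shaft keratins, 4 rose at 24 h in WT and Krt84 fell at 6 h in the p53 knockout, and of 8 inner root sheath keratins 0 were called in any genotype. Of the Krt17 binders, Sfn, Hnrnpk and Tradd, 0 were called in back skin. Beside the shares of all genes above, nothing is read from a 0 among so few genes.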

How the data were processed

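The deposited values are FPKM, made by the authors using mm10 as the genome, TopHat2 2.1.0 and Cufflinks 2.2.1, per the submitters' processing notes. The annotation, the strand setting and how samples were averaged are not given in the sources used here. The tables, 1 per tissue, hold 1 mean column per group. The planned limma fit on single samples could not be made, so log2 ratios of (mean FPKM + 1), which understate changes of low genes, were described with no test, among genes with 1 FPKM in at least 1 group of the tissue. The number of reads is unknown. A gene listed at 0 with a median of 5 FPKM or more elsewhere was treated as missing (32 footpad and 19 back skin values). Symbols on several lines (116) were left out.

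The keratins and the 10 gene lists (156 of 161 genes found) were chosen with earlier results of these data known. Named genes were the 5 keratins, the 5 genes with the highest Pearson's r to each, and the 3 genes of each list with the largest absolute ratio in WT footpad T9 and in p53 knockout back skin at 6 h, among those with 5 FPKM or more in a group compared, and Krt14, Krt5, Krt42, Krt10 and the 5 highest keratins of unirradiated WT skin. Of these, the genes printed were picked after their values were seen. Some genes that the rule names are not reported here. The values were recomputed with a pseudocount of 0.1 FPKM, without a filter, with a filter of 5 FPKM, with columns rescaled by their median ratio, and with levels relative to Krt14 plus Krt5. Sequences were read from GENCODE M21 transcripts (GRCm38). The scripts were tested on simulated data. Computation used Python 3.11.15, numpy 2.4.6, pandas 2.3.3, scipy 1.17.1, matplotlib 3.10.9 and Biopython 1.88.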

Additional observations from a re-analysis of the deposited data

How the results depend on the processing

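No paired analysis was possible because the tables hold only the mean of each group, and for the same reason leaving out each replicate was not run. Of 340 counts of keratins under the 5 alternatives, 323 stayed within 1.5 times, and 0 called ratios turned round. Not all of these counts could change. All 5 keratins passed 1 FPKM in both tissues, so the 68 counts without a filter were fixed. The filter of 5 FPKM could act only through Krt75 in footpad. With a filter of 5 FPKM Krt75 left the footpad, and the count of lower keratins in WT at T3 and T6 became 0. With a pseudocount of 0.1 FPKM the count of lower keratins became 1 in WT at T9 and in the Krt17 knockout at T6 and T9, through Krt75. The count of higher keratins then became 1 for the Krt17 knockout against WT at T3 and for the difference of their responses at T3, and 2 in WT back skin at 24 h. Rescaled columns made 3 higher there. Levels relative to Krt14 plus Krt5, applied to the ratios after seeing the data, gave 1 lower keratin in WT at T9, in the Krt17 knockout at T6 and T9 and against WT at T3, and 0 lower at 6 h in WT and Krt17 knockout back skin. They gave 1 higher at 24 h against 6 h in WT and 0 in the Krt17 knockout. On that scale Krt17 in the knockout at T6 stood at a log2 ratio of 0.85, and the response differences of Krt17 at 0.55 (T6) and -0.78 (T9), all within 2-fold. Under rescaling 5 of 170 ratios changed sign, and the largest of these was 0.21. Levels of Krt75 in footpad and of Krt6b in Krt17 knockout back skin are near 1 FPKM, where the ratio depends on the pseudocount, and the number of reads behind them is not known.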
